A study of Mus musculus with 4 samples.

Results

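The antioxidant, glutathione and metallothionein genes are 40 genes whose products remove superoxide and peroxides, keep thiols reduced, conjugate electrophiles or bind reactive metals. They were chosen by symbol from a list of such genes, and all 40 were found among the 56980 genes of the count table. The list names 3 superoxide dismutases, catalase with 5 glutathione peroxidases, 6 peroxiredoxins, 5 genes of the thioredoxin system, 4 of glutathione synthesis and recycling, 5 glutathione transferases, 5 genes of haem and quinone metabolism and of NRF2 control, 3 metallothioneins, and the 2 ferritin genes with selenoprotein P.

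Their RNA was measured in mesenchymal stromal cells (MSCs) of the bone marrow, taken by sorting for CD51+ and PDGFRa+ with no CD45, Ter119, CD31 or Sca1 from 4 wild-type C57BL/6J male mice of an in-house colony, aged 14 weeks. Each library was made from 100 cells of 1 mouse by poly(A) priming with full-length amplification. All 4 libraries form a single group, so levels and their spread between mice were described and genes were compared with each other within each mouse. Levels are given as TPM, the read count divided by the length of the gene's merged exons and scaled to a total of 1000000 in each library. CPM is the same without the length.

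Superoxide dismutases turn superoxide into hydrogen peroxide, which catalase, the glutathione peroxidases and the peroxiredoxins then reduce. The peroxidases draw electrons from glutathione or thioredoxin, and both are reduced again with NADPH. KEAP1 holds the transcription factor NRF2 low in unstressed cells, and metallothioneins and ferritin store zinc, copper and iron. In bone marrow, stromal cells that make CXCL12 support haematopoietic stem cells, whose maintenance is sensitive to reactive oxygen species.

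The libraries held between 22738604 and 43545349 counts, and 3 counts, taken as the smallest detectable amount, correspond to between 0.0689 and 0.132 CPM. Pdgfra and Itgav, the genes of the 2 antigens used to select the cells, were above 1 TPM in every mouse, and osteoblast genes summed to between 100027 and 196750 TPM. Ly6a, the gene of the excluded Sca1 antigen, had 120 counts in mouse 2 and 144 in mouse 4 against 1 and 0 in mice 1 and 3. Erythroid transcripts varied widely, at 5024, 35.1, 1732 and 362 TPM in mice 1 to 4, with Alas2, a gene of red cell haem synthesis, at 0 in mice 2 and 4. Stromal niche genes (Cxcl12, Lepr and 4 others) summed to 1067, 4644, 2387 and 1243 TPM, and 5 adipocyte genes to 199, 962, 439 and 234 TPM with Plin1, which coats lipid droplets, at 0 throughout. Macrophage genes summed to between 0.254 and 16.1 TPM with Adgre1, Csf1r, C1qa and Lyz2 at 0 in every mouse, and endothelial genes to between 0.0465 and 1.28 TPM. Neutrophil genes summed to 39.6, 19.6, 5.96 and 7.81 TPM in mice 1 to 4, with Ngp and Ltf at 0 in every mouse. Ptprc, the gene of the excluded CD45 antigen, had 2, 2, 0 and 50 counts. Chondrocyte genes summed to 571, 249, 325 and 226 TPM. A lower level in a bulk library of this kind cannot be told apart from fewer cells of a type or less RNA per cell.

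Adult MSCs expressed nearly the whole list. A median above 1 TPM over the 4 mice was reached by 39 of the 40 genes, all but Mt3, against 22.9% of all genes with an annotated length and 44.2% of protein-coding genes. The level was above 1 TPM in every mouse for 32 of the 40, against 30.1% of protein-coding genes and 68.1% of the protein-coding genes whose median passed. At least 10 counts in every mouse were found for 34 of the 40, against 35.2%. These genes were picked for what their products do, many of them in every cell, so a share above the background is a description of the list. Of the 40, 18 had a median above 100 TPM, 16 lay between 10 and 100 TPM and 5 between 1 and 10 TPM. By mean TPM, 6 members lay between 1 and 10, 14 between 10 and 100, 16 between 100 and 1000 and 3 above. The other genes in these bands numbered 8578, 4659, 895 and 98, among 52125 genes with an annotated length. Together the 40 genes summed to 17885 ± 3147 TPM (SD, n = 4 mice).

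**Figure D1:**
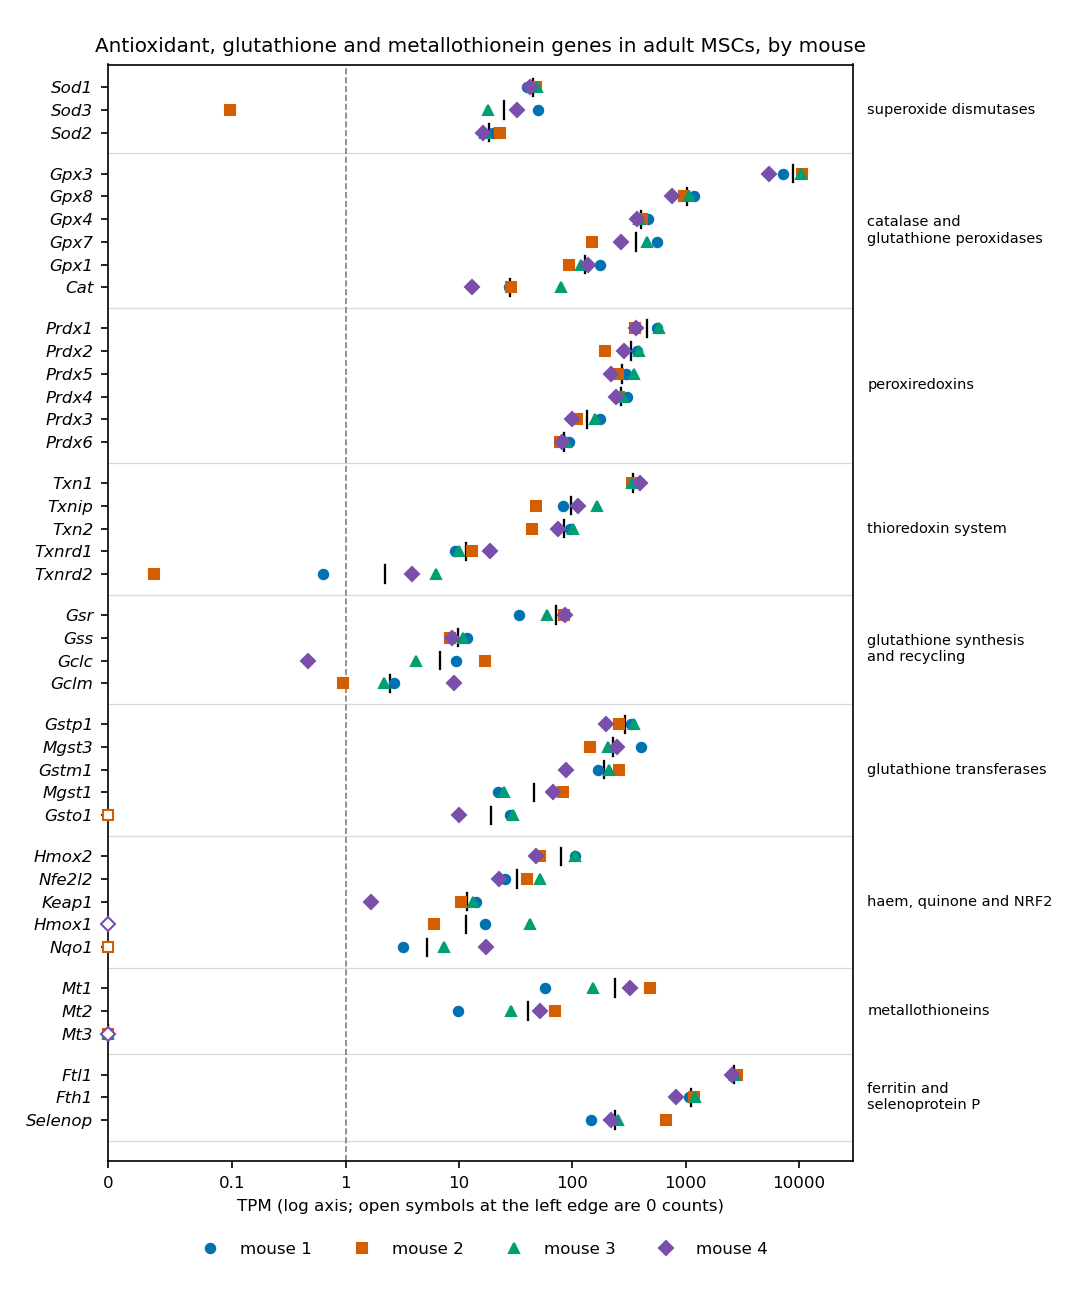
Level of each of the 40 genes in each of the 4 mice, as TPM on a log axis, grouped by role, with a black bar at the median and a dashed line at 1 TPM. Open symbols at the left edge stand for 0 counts and are not to scale. Gpx3 and Ftl1 lie farthest to the right, the points of Ftl1 almost coincide, and Mt3 is at 0 in every mouse.

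A few genes made up most of this RNA. Catalase and the glutathione peroxidases accounted for 57.1% of the summed TPM of the list on average over mice, ferritin and selenoprotein P for 23.0%, and the peroxiredoxins for 8.76%. Superoxide dismutases (0.515%), glutathione synthesis and recycling (0.504%) and the haem, quinone and NRF2 genes (0.804%) were the smallest groups. Of the 100 genes with the highest median TPM of all, 4 were on the list, at ranks 12 (Gpx3), 31 (Ftl1), 87 (Fth1) and 93 (Gpx8).

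Gpx3 (ENSMUSG00000018339, chr11:54902453-54910377 on GRCm38), the glutathione peroxidase secreted into the extracellular fluid, was the highest member. Mice 1 to 4 had 7188, 10588, 10345 and 5470.2 TPM of it, which average 8398 ± 2491 TPM (SD, n = 4). Mice 2 and 3 were high and mouse 4 low, and the lowest of the 4 values lay above every value of any other member. Gpx8 and Gpx7, peroxidases of the endoplasmic reticulum, where collagen and other secreted proteins are folded, were also high. Gpx8 had 1188, 961, 1072 and 753 TPM, and Gpx7 had 555, 149, 458 and 269 TPM. Gpx8 exceeded Gpx7 in each mouse, by 1.62 ± 0.73 on the log2(TPM + 1) scale (mean difference ± SD, n = 4), with the widest gap in mouse 2, where Gpx7 was lowest.

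Gpx4, which reduces lipid peroxides in membranes and guards against ferroptosis, stood above the general cytosolic enzyme Gpx1. Gpx4 was at 465, 414, 389.9 and 374 TPM, close together in all mice, and Gpx1 at 174, 93.6, 118 and 138 TPM. Gpx4 was the higher gene in 4 of 4 mice, by 1.67 ± 0.34 log2. Processed copies with at least 95% identity cover 73.7% of the longest Gpx4 transcript, and the counts listed for them came to 7.21% of those of Gpx4, so its level is uncertain. Catalase, the peroxisomal enzyme that works at high peroxide levels, was lower and less even. Cat was read at 27.8, 28.7, 79.6 and 12.999 TPM, 6.13 times as much in mouse 3 as in mouse 4. Red cells are rich in catalase, and the erythroid transcripts were highest in mouse 1, where Cat was near its median. Their part in the Cat level was not tested.

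Sod1, the cytosolic copper-zinc enzyme, varied little at 39.5, 47.8, 48.6 and 42.2 TPM, and Sod2, the mitochondrial manganese enzyme, had 20.1, 23.1, 17.0 and 16.3 TPM. The difference of 1.19 ± 0.25 log2 rests on the gene lengths, since Sod1 is annotated with a transcript far longer than its principal one. With the length of the principal transcript the difference was 3.03 log2 and Sod1 reached a median of 199 TPM, whereas CPM, which holds no length, put Sod1 0.10 log2 below Sod2. Sod3, the secreted enzyme of the extracellular matrix, differed by mouse, at 49.6, 0.0962, 17.9 and 32.4 TPM. Mouse 2 stands alone, with 4 counts against between 1157 and 3265 in the other mice. Its library was deeper than that of mouse 4 but had the fewest genes detected. Genes with any count numbered 18683, 16109, 18907 and 18802 in mice 1 to 4, and the part of this in the Sod3 level was not tested. Sod1 minus Sod3 was 1.73 ± 2.59 log2 with Sod1 higher in 3 of 4 mice, a difference within the spread, and it was 0.48 without mouse 2.

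All 6 peroxiredoxins were above 1 TPM in every mouse, and they ranged from Prdx1 at 461 ± 118 TPM to Prdx6 at 85.0 ± 7.14 TPM (SD, n = 4 for each). Prdx1, a cytosolic enzyme, was at 552, 356, 575 and 362 TPM, so mice 1 and 3 formed the upper pair. Prdx2, the form abundant in red cells, followed the same order of mice at 375, 196, 386 and 288 TPM. Mouse 2 was lowest for Prdx2 and also had the fewest erythroid transcripts (35.1 TPM), and mice 1 and 3, the highest for Prdx2, had the most (5024 and 1732 TPM), but the part of these in the Prdx2 level was not tested. Prdx1 was above Prdx2 in 4 of 4 mice by 0.58 ± 0.22 log2, which shrank to 0.07 with the length of the longest or of the principal transcript. Junb and Rnaseh2a lie on the opposite strand and share 5.67% and 5.80% of the exonic bases of Prdx2, and counting without strand cannot divide such reads.

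The other peroxiredoxins are placed in organelles. Prdx5, found in mitochondria and peroxisomes, was at 297, 254, 347 and 219 TPM, and Prdx3, the mitochondrial enzyme, at 174, 109.7, 159 and 99.3 TPM. Prdx5 exceeded Prdx3 in every mouse, by 1.06 ± 0.20 log2, and 19.1% of its exonic bases are shared with Trmt112 on the opposite strand. Prdx4, the form of the endoplasmic reticulum, and Prdx6, which also acts on phospholipids, were among the steadiest members, with coefficients of variation (CV, the SD as a percentage of the mean) of 9.42% and 8.41%. Prdx4 averaged 272 ± 25.6 TPM.

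In the thioredoxin system, thioredoxin itself was high and its reductases were low. Txn1, the cytosolic thioredoxin, was read at 342, 336, 337 and 394 TPM, with mouse 4 above 3 near-equal values. It was the 1 member in which a single mouse stood so far apart (a gap of 0.898 of the range), as in 5.75% of all genes with a median above 1 TPM. Txn2, its mitochondrial counterpart, was at 95.9, 43.7, 102 and 74.3 TPM, and Txn1 exceeded it in each mouse by 2.21 ± 0.55 log2 (1.18 with the length of the longest transcript, and 0.22 in CPM, where the sign differed between mice). Txnrd1, the cytosolic reductase, had 9.30, 13.04, 9.98 and 18.9 TPM. The mitochondrial reductase Txnrd2 had 0.633, 0.0204, 6.22 and 3.83 TPM and was thus under 1 TPM in mice 1 and 2, with a single count in mouse 2. Txnrd1 was the higher in 4 of 4 mice, by 2.27 ± 1.32 log2. Txnip, which binds and inhibits thioredoxin and limits glucose uptake, averaged 102 ± 49.5 TPM and was highest in mouse 3.

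The genes of glutathione synthesis were low and uneven. Gclc, the catalytic subunit of the rate-limiting glutamate-cysteine ligase, was at 9.49, 17.0, 4.20 and 0.463 TPM, and Gclm, its modifier subunit, at 2.68, 0.943, 2.19 and 8.95 TPM. The subunits took opposite ends in mice 2 and 4, where Gclc was highest and lowest and Gclm lowest and highest. Their difference of 0.66 ± 2.51 log2 lay within the spread, was positive in 3 of 4 mice and turned to −0.18 without mouse 2. Gss, which completes glutathione, was even between mice at 9.91 ± 1.64 TPM. Gsr, the reductase that regenerates it, averaged 65.7 ± 24.6 TPM and was the highest of the group in every mouse.

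The glutathione transferases spanned a wide range. Gstp1, a cytosolic transferase, had 328, 258, 348 and 198 TPM, Mgst3, a membrane-bound member, averaged 250.1 ± 109.8 TPM and Gstm1 182 ± 72.1 TPM. Copies at 95% identity or more cover 86.1% of the longest Gstp1 transcript and 51.0% of that of Gstm1, and the counts listed for them came to 8.84% and 0.820% of those of the genes. The reads lost to copies are not known from these counts. Gsto1, an omega-class enzyme, was at 28.4, 0, 29.7 and 10.05 TPM, so that it was not detected in mouse 2, where 3 counts would have been 0.133 TPM. Mgst1, a microsomal enzyme that also reduces lipid peroxides, was at 22.3, 81.9, 24.8 and 67.2 TPM, with mice 2 and 4 well above mice 1 and 3.

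Among the genes of haem and quinone metabolism, the constitutive form was high and the inducible ones were low and uneven. Hmox2, the constitutive haem oxygenase, was at 106, 52.2, 105 and 47.4 TPM. Hmox1, the inducible form, was at 17.0, 6.06, 42.1 and 0 TPM, and the 0 counts of mouse 4 compare with 0.166 TPM for 3 counts there. Hmox2 exceeded Hmox1 in 4 of 4 mice by 3.09 ± 1.81 log2. Cdip1 on the opposite strand shares 40.2% of the exonic bases of Hmox2. With only the bases that no other listed gene covers, the difference was 3.81 log2. Hmox1 is also a gene of haem-recycling macrophages. Mouse 3 was highest for Hmox1 and for the summed macrophage markers (16.1 TPM), of which Adgre1, Csf1r, C1qa and Lyz2 were at 0 in that mouse too. It was likewise highest for the sum of 9 genes that react to cell dissociation, at 2114, 3570.5, 5001 and 2060.2 TPM in mice 1 to 4. The immediate early genes carried that sum, and the heat-shock genes Hspa1a and Hspa1b were lower in mouse 3 than in mice 1 and 2. The part of either in the Hmox1 level was not tested.

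Nqo1, a quinone reductase used as a standard readout of NRF2, was at 3.18, 0, 7.30 and 17.4 TPM, with 0 counts in mouse 2 against a floor of 0.174 TPM. Nfe2l2, the gene of NRF2, averaged 34.7 ± 13.4 TPM, and Keap1, the gene of its inhibitor, 9.80 ± 5.63 TPM.

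The letters that NRF2 recognises were searched in the promoters. RefSeq windows on GRCm38.p6 covered 35 of the 40 genes, all but Gclc, Prdx6, Gsr, Hmox1 and Sod3, and the 250 bases before each start were read on both strands for TGACNNNGC, the core of the antioxidant response element. It was present for 7 of the 35 genes, against 11.5% of the 27025 genes with a window. The members were Prdx1, Mgst1, Sod1, Txnrd1, Gclm, Nfe2l2 and Mt2, whose medians ranged from 2.44 TPM (Gclm) to 457 TPM (Prdx1). The core with 15 bases on each side is shown in capitals for 4 of them, to set promoters with the same letters beside levels that differ widely. Prdx1 is read at chr4:116685451-116685489, Mgst1 at chr6:138140456-138140494, Txnrd1 at chr10:82859099-82859137 and Gclm at chr3:122245408-122245446, all on the plus strand. The first base of the core lies 133, 56, 92 and 134 bases before the start of its window's transcript. Mgst1 has 2 windows and Txnrd1 3, and the core was in a single window of each. The Txnrd1 window shown belongs to a start inside the gene, which begins at chr10:82833951.
Prdx1: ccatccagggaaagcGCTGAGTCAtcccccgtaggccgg
Mgst1: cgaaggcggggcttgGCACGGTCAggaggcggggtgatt
Txnrd1: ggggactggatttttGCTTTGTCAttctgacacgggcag
Gclm: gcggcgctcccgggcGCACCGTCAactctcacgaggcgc
A match of these letters is a description of the window and no evidence of binding.

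The metallothionein genes lie side by side on chromosome 8. Mt3, at chr8:94152607-94154146, is the form known from brain, and it had 0 counts in all 4 mice, which allows at most between 0.160 and 0.272 TPM in a library at 3 counts. Mt2, at chr8:94172664-94173568, and Mt1, at chr8:94179082-94180327 (GRCm38, all on the plus strand), are the forms induced by zinc, glucocorticoids and stress in most tissues. Mt1 was read at 57.8, 487, 151 and 321 TPM, and Mt2 at 9.76, 70.02, 28.5 and 51.8 TPM. Both genes were highest in mouse 2, then mouse 4, then mouse 3, and lowest in mouse 1, with 8.41 times and 7.17 times as much in mouse 2 as in mouse 1. Mt1 stayed between 5.29 and 6.95 times Mt2 in every mouse, a difference of 2.55 ± 0.18 log2.

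The size of this ratio depends on the lengths, and the order of the mice does not. In counts Mt1 was between 11.2 and 14.7 times Mt2. With only the exonic bases that no other listed gene covers, the ratio fell to between 1.40 and 1.84, because 73.5% of the exonic bases of Mt2 are shared with Gm45774, an antisense gene. Gm45774 itself had 192, 135, 0 and 0 counts, against 101, 458, 290 and 315 for Mt2. The methods give no option to count a read for more than 1 gene. Reads left out because they lie in both genes would lower Mt2 and raise the ratio over the full lengths. How many were lost is not known from these counts.

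Mgst1 was the only other member with the same order of mice as Mt1 and Mt2, an order found in 3.97% of the other genes with a median above 1 TPM. Of the 6 stromal niche genes, Lepr, Foxc1 and Ebf3 had it too, Cxcl12 and Kitl had mice 3 and 4 exchanged, and Prrx1 ran the other way at 19.4, 10.6, 17.95 and 12.02 TPM. Lepr, the leptin receptor that marks perivascular stromal cells, was at 31.9, 120.2, 44.5 and 64.8 TPM, and Ebf3, a transcription factor of the same cells, at 1.03, 27.3, 6.87 and 12.9 TPM. The summed niche genes (1067, 4644, 2387 and 1243 TPM) and adipocyte genes (199, 962, 439 and 234 TPM) were highest in mouse 2 and lowest in mouse 1, as Mt1 was, with mice 3 and 4 in the reverse order. Of 5 glucocorticoid-responsive genes the sum was 61.0, 119, 146 and 50.1 TPM, lowest in mouse 4, where Mt1 was above its level in mice 1 and 3. The part of cell makeup or of hormone exposure in the metallothionein levels was not tested.

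Upstream windows of the 3 genes were searched on both strands for TGCACNC and TGCGCNC, the core of the metal response element bound by MTF1, the zinc-sensing transcription factor. The 250 bases before the RefSeq starts of these neighbouring genes are printed, with the cores in capitals and everything else in lower case. They cover chr8:94178839-94179088 for Mt1, chr8:94172368-94172617 for Mt2 and chr8:94152357-94152606 for Mt3.
Mt1: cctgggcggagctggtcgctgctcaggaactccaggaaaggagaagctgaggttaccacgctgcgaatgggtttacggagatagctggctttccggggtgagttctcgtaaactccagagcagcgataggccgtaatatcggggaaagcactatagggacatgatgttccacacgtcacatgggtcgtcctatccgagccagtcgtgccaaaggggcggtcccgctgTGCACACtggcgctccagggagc
Mt2: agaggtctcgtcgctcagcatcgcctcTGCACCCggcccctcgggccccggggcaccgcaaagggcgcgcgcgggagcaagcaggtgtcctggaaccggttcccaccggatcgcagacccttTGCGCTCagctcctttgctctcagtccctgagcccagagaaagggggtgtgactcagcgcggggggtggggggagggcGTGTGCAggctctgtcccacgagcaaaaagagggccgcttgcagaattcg
Mt3: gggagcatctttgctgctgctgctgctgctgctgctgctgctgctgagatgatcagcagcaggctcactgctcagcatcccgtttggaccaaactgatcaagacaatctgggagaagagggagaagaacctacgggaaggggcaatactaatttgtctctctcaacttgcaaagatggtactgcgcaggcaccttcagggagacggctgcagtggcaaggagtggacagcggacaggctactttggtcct
The Mt2 window held 3 cores, the Mt1 window 1 and the Mt3 window 0. GTGTGCA in the Mt2 window is the core TGCACAC on the opposite strand. At least 1 core was found in 21.4% of all 32851 windows and at least 3 in 1.26%. Over the list, 8 of the 35 genes with a window (22.9%) held a core, near the 23.8% of all genes. The windows depend on which start is annotated. Besides starts at or near the RefSeq one, the GENCODE annotation has transcripts that begin 122 and 152 bases after it for Mt1 and 139 for Mt3. For Mt2 its transcripts begin 46 and 242 bases after the RefSeq start and none at it. The bases just before those later starts lie outside the window, and cores there were not counted. Whether the cores bear on the levels was not tested.

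The ferritin genes were high and even. Ftl1, the light chain of the iron-storing shell, was at 2624, 2819, 2734 and 2533 TPM, with a CV of 4.67%, above that of 2.2% of the 500 genes nearest to it in mean CPM. Fth1, the heavy chain that oxidises iron, was at 1062, 1174, 1208 and 826 TPM. Ftl1 was above Fth1 in 4 of 4 mice, and Fth1 minus Ftl1 was −1.34 ± 0.19 log2. In CPM, which holds no length, the difference was 0.03 log2, so the order rests on dividing by length. Every length tried kept Ftl1 higher. The difference was −1.06 log2 with the longest transcripts, −0.59 with the principal ones and −1.78 with the bases that no other listed gene covers. The longest Ftl1 transcript is covered to 95.6% by copies in 11 other genes, whose counts came to 7.18% of its own. Reads that fit several copies were not counted, so its level is uncertain and the loss is not known. Selenop, the secreted carrier of selenium, was at 145, 675, 253 and 218 TPM. Mouse 2 stood above the other mice, as it did for the niche and adipocyte markers, and their part was not tested.

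No pair could pass a test with 4 mice. Of the 12 pairs, 10 had the same sign in every mouse, for which p = 0.125 when the signs are flipped in every way (exact permutation test, two-sided). With 4 mice no smaller p can be reached, and Benjamini-Hochberg adjustment of all 12 makes it 0.15. The 2 others were Sod1 with Sod3 (exact p = 0.25, adjusted 0.272727) and Gclc with Gclm (exact p = 0.625, adjusted 0.625). For a pair with the same sign in every mouse this p is fixed whatever the spread. Mt1 with Mt2 (SD 0.18 log2) and Hmox2 with Hmox1 (SD 1.81 log2) both had an exact p = 0.125. In TPM the signs also rest on the gene lengths used. The mean difference was larger than its SD in the same 10 pairs.

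**Figure D2:**
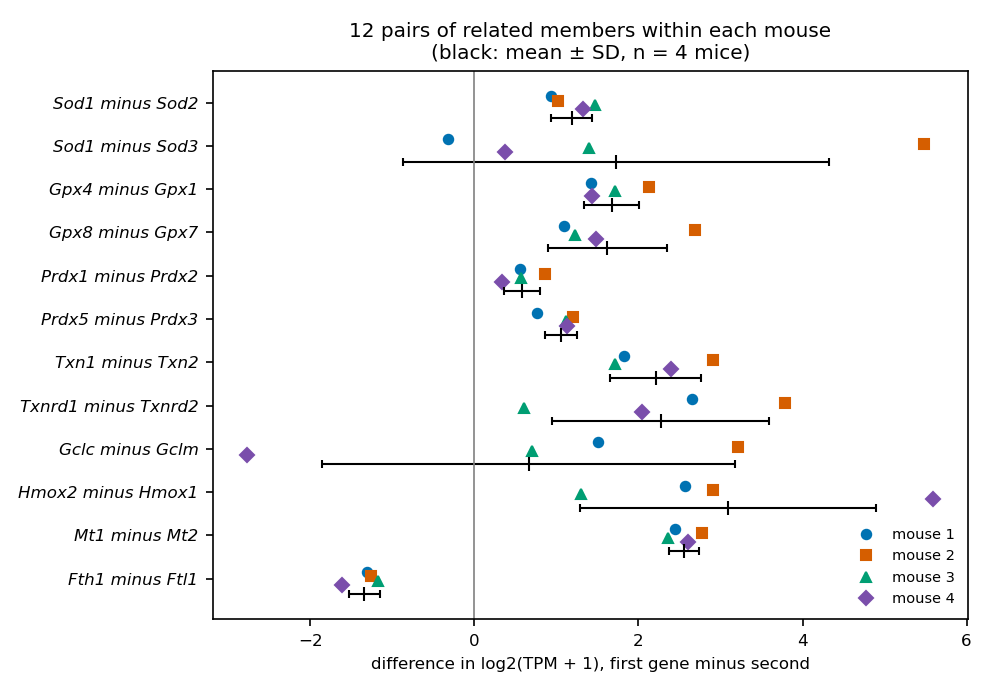
Difference in log2(TPM + 1) between the genes of each of 12 pairs, first minus second, with 1 symbol for each mouse and the mean ± SD (n = 4) in black below the symbols. Points of Mt1 minus Mt2 and of Fth1 minus Ftl1 lie close together, whereas those of Gclc minus Gclm and Sod1 minus Sod3 fall on both sides of 0.

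The spread between mice includes differences between animals and between amplified libraries of few cells, which cannot be told apart. The 39 genes with counts had a median CV of 37.4%, and the part of it that the drawing of reads would give had a median of 1.88%. For each gene the CV was set beside the 500 other genes nearest in mean CPM, and 17 of the 39 lay below the median of their neighbours. The median place of a member among its neighbours was 57% from the bottom. Mt1 and Selenop stood at the upper end, with CVs of 74.6% and 74.2%, each above 97.2% of their neighbours. Sod3 (84.3%, above 94.8%), Cat (78.2%, above 91.0%) and Gpx7 (51.2%, above 90.2%) followed. Ftl1, Txn1, Sod1, Prdx6 and Gss formed the lower end, with CVs of 4.67%, 7.92%, 9.87%, 8.41% and 16.6%, each above at most 4.6% of their neighbours. With 4 mice and chosen extremes these places are descriptions.

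**Figure D3:**
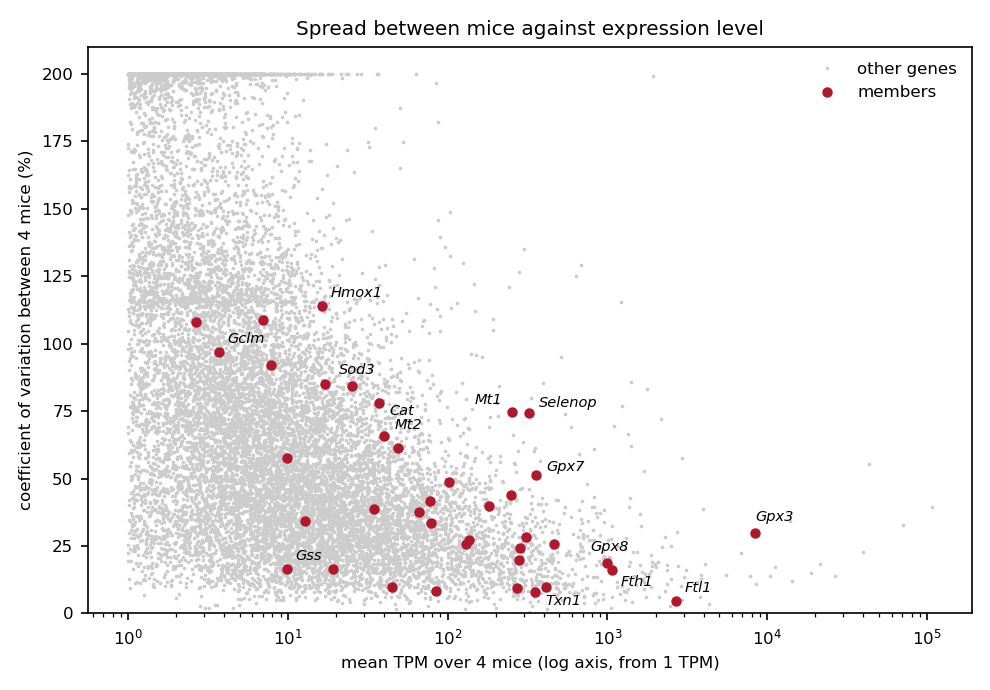
CV between the 4 mice in percent against mean TPM on a log axis, for the 39 genes of the list with counts in red and other genes from 1 TPM in grey. Mt1, Selenop and Gpx7 lie above most grey points at their level, and Ftl1, Txn1 and Gss lie below most of them. A CV of 200% is the largest that 4 values allow.

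Some genes fell under the detection floor in a library. Under 3 counts in at least 1 mouse were Txnrd2, Gsto1 and Nqo1 in mouse 2, Hmox1 in mouse 4 and Mt3 in all, 4 of the 39 genes with a median above 1 TPM, against 18.1% of the protein-coding genes that passed that cutoff. That share is not matched for level, and most members lie well above the cutoff. Among the 500 genes nearest in mean CPM, the share with such a library was 56.6% for Txnrd2 and 57.2% for Nqo1. It was 24.8% for Hmox1 and 16.8% for Gsto1. The library of mouse 2 also had the fewest genes detected, 16109, and the part of this in the missing genes was not tested. The floors and counting errors cover the drawing of reads only, since amplified copies without molecular identifiers are not independent molecules.

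The highest value fell in mouse 1 for 12 of the 39 genes, in mouse 2 for 9, in mouse 3 for 13 and in mouse 4 for 5, against 25.7%, 26.1%, 29.7% and 18.5% of the other genes with a median above 1 TPM. The lowest value fell in these mice for 7, 15, 0 and 17 of the 39, against 22.1%, 35.0%, 13.2% and 29.7%. No difference between these counts and the shares was tested. The genes highest in mouse 2 were Sod2, Gpx3, Gclc, Gstm1, Mgst1, Mt1, Mt2, Ftl1 and Selenop. Those lowest there included Sod3, Gpx7, Txnrd2, Gsto1 and Nqo1. The sum over the list, 17102, 20181, 20496 and 13760.2 TPM, was highest in mice 2 and 3 and lowest in mouse 4, as Gpx3 was.

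**Figure D4:**
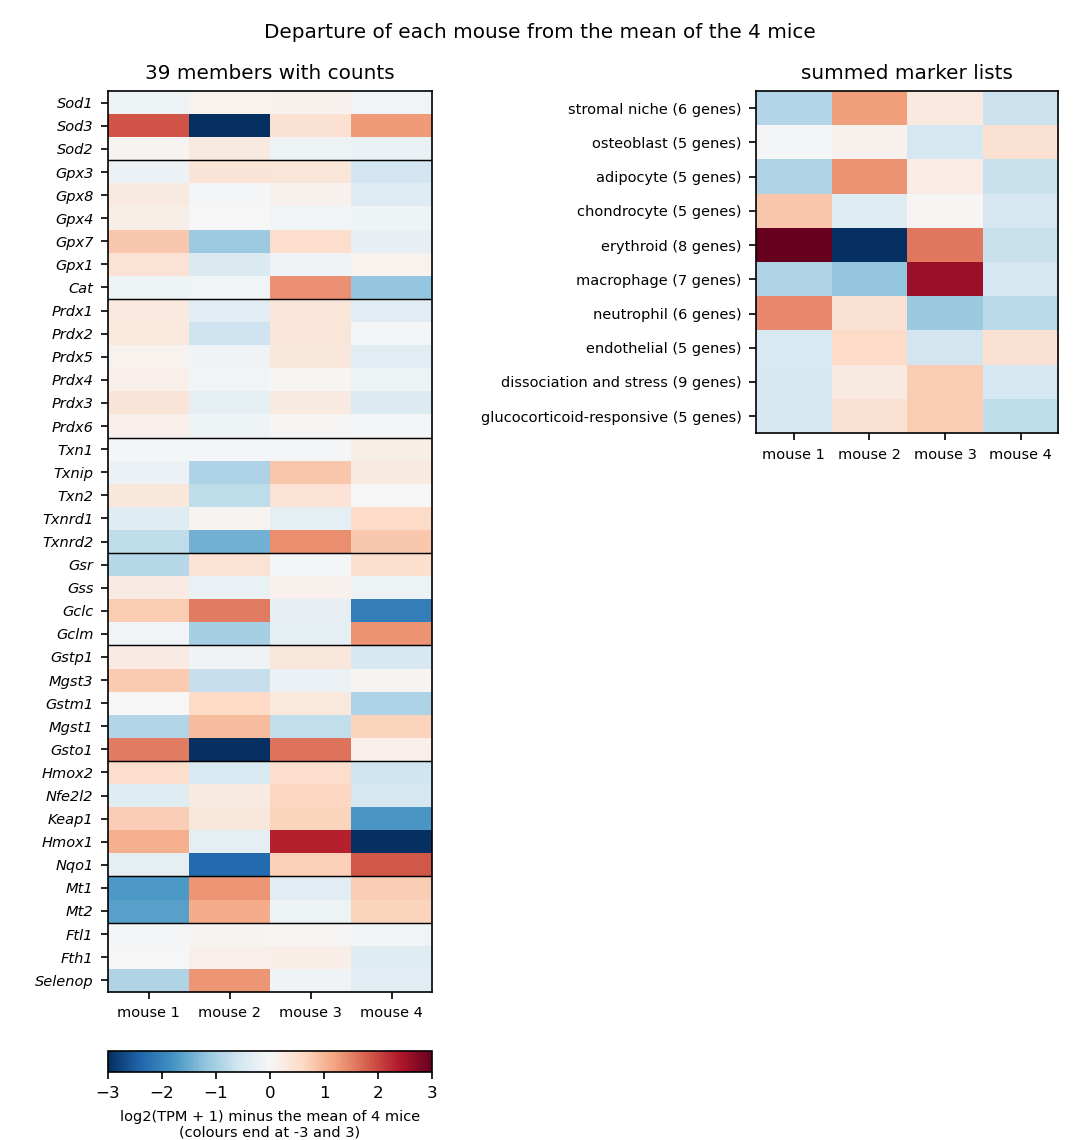
Left, log2(TPM + 1) of each of 39 genes in each mouse minus the mean of the 4 mice, with lines between roles. Right, the same for the summed TPM of 10 marker lists, with the number of genes in brackets. Mt1, Mt2, Mgst1 and Selenop are red in mouse 2 and blue in mouse 1, as are the stromal niche and adipocyte lists, and the erythroid list is red in mice 1 and 3 and blue in mice 2 and 4.

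Other genes of the same pathways were read from 7 lists. For comparison with all 7, 44.2% of protein-coding genes had a median above 1 TPM and 30.1% were above it in every mouse. In NADPH supply, 7 of 7 measured genes had a median above 1 TPM and 5 were above it in every mouse. They were led by Idh2 (median 153 TPM) and Taldo1 (122 TPM), an isocitrate dehydrogenase of mitochondria and an enzyme of the pentose phosphate pathway. In glutathione transport, reduction and breakdown, 19 of 20 genes had a median above 1 TPM and 11 were above it in every mouse, led by Park7 (152 TPM) and Glrx3 (55.8 TPM). The exception was Slc7a11, which imports cystine for glutathione synthesis, with 5, 3, 5 and 5 counts or between 0.0194 and 0.0348 TPM. Of 17 other selenoproteins, 13 had a median above 1 TPM, and Selenom (750.02 TPM) and Selenos (663 TPM), both of the endoplasmic reticulum, were the highest, while Selenov and the deiodinases Dio1, Dio2 and Dio3 were at 0. Of 20 zinc and iron genes, 15 passed, led by Trf, transferrin (288 TPM), and Cp, ceruloplasmin (89.7 TPM), with Mt4, Slc30a10 and Ftmt at or under 1 TPM in every mouse.

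NRF2 partners and regulators passed for 9 of 10 genes, with Sqstm1, the autophagy adaptor that binds KEAP1 (215 TPM), and Rbx1 (85.3 TPM) at the top. Of 21 other glutathione transferases and peroxidases, 12 passed, led by Gstm2 (130.4 TPM) and Gstm5 (113 TPM), and Gsta1, Gsta2, Gsta3, Gstm3, Gpx2 and Gpx6 had 0 counts while Gpx5 had at most 5. The NADPH oxidases, which make superoxide, were the list with the fewest genes present, 3 of 12. Cyba, the membrane subunit shared by several oxidases, had 240.2, 50.8, 245 and 203 TPM and Ncf1 a median of 18.1 TPM. The catalytic subunits Nox1 and Nox3 and the dual oxidases Duox1 and Duox2 were among the 8 genes at or under 1 TPM in every mouse. Of the remaining catalytic subunits, named here after their values were seen, Cybb had 0, 4.95, 0 and 10.6 TPM and Nox4 at most 1.27 TPM. Cybb was thus found in the 2 mice in which Ly6a was found, and neither was tested as a sign of other cells.

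**Figure D5:**
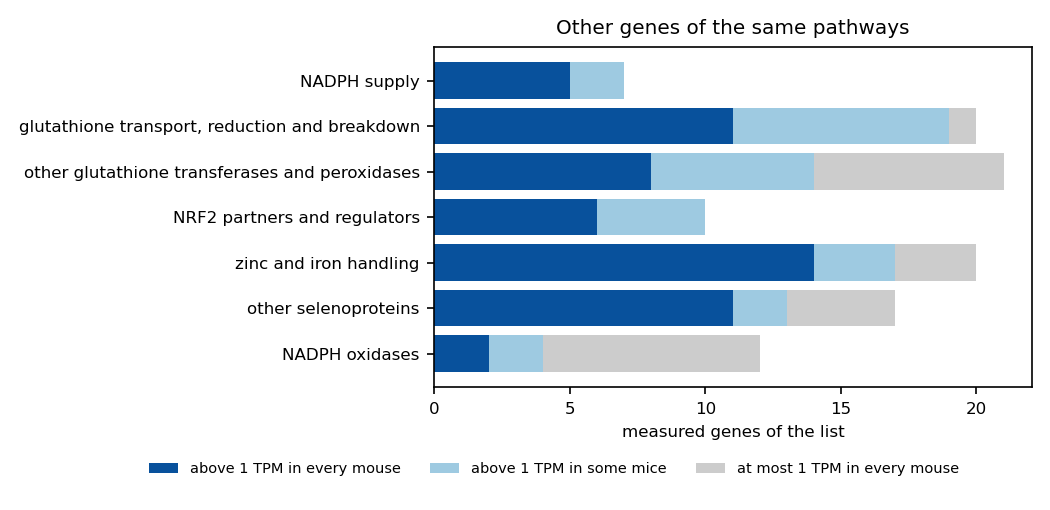
Number of measured genes in each of 7 lists of other pathway genes that were above 1 TPM in every mouse (dark blue), in some mice (light blue) or in none (grey). The bar of the NADPH oxidases is mostly grey, with 8 of 12 genes at or under 1 TPM in every mouse, and those of NADPH supply and NRF2 partners hold no grey.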

How the data were processed

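RNA-seq libraries of sorted MSCs from 4 mice were analysed. The authors deposited raw counts per gene, and per the labels used bcl2fastq 2.20.0, STAR 2.7.10 and featureCounts of Subread 1.6.5 on GRCm39. No strand option is given in the methods, so counting was taken as unstranded, and reads shared with an antisense gene cannot be divided. Uniquely mapped pairs were counted, which lowers genes with near-identical copies.

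From the counts, TPM was obtained (Python 3.11.15, pandas 2.3.3, numpy 2.4.6) with the merged exon lengths of GENCODE M21 on GRCm38. This is not the build of the counts, genes were joined by identifier, no coordinates were converted, and 4855 of the 56980 genes had no length. Promoter windows of RefSeq on GRCm38.p6 were searched as text. Near-identical copies were found with BLAST 2.17.0 at 95% identity over at least 100 bases. Library depth was between 22738604 and 43545349 counts.

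The members, pairs and lists were chosen with earlier results of these data known. All members are named. Values of each mouse are given for the members highest in median TPM or in CV (the top 25% of either), those under 1 TPM in a mouse and those of the 12 pairs. From each pathway list the 2 highest genes and those at or under 1 TPM in every mouse may be named, and 1 of these is not reported here. Pairs were compared mouse by mouse as differences in log2(TPM + 1), with a two-sided exact permutation test that flips their signs. Alternatives were other lengths, CPM, TMM factors (edgeR 4.0.16, R 4.3.3) or median-of-ratios factors, a denominator without the 10 highest genes, a pseudocount of 0.1, other cutoffs, and leaving out each mouse. The principal transcript length and the bases that no other listed gene covers were added after seeing the data. The steps were tested on simulated data for 25563 genes. Of 200 genes given 2 times the log spread of the rest, 91.5% were placed above the median of their neighbours. The rest all had the same log spread of 0.3, whereas in these data the spread falls with level. Genes as low in CPM as Txnrd2 and Nqo1 were not among the 200. The rate therefore shows that the steps work and not how well each member was placed.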

Additional observations from a re-analysis of the deposited data

Results flagged for a closer look

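Txn1, the cytosolic thioredoxin, was picked out because mouse 4 lay far from the other mice. Its levels were 342, 336, 337 and 394 TPM in mice 1 to 4, and the gap of mouse 4 to the nearest mouse was 0.898 of the whole range. It was 0.831 in CPM, 0.467 after scaling by TMM factors and 0.546 after median-of-ratios factors, so it depended on the scaling. It was the 1 member of 39 picked out in this way, and among all genes with a median above 1 TPM the share was 5.75%. Chance flags about 1 in 20 groups.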

How the results depend on the processing

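The 17 summary values and pair differences were recomputed under up to 12 settings each, 198 in all. Of these, 186 kept the sign of the mean or stayed within the limit set for a change, 9 moved and 3 reversed. Scaling factors and the changed denominator act alike on both genes of a pair, so they could alter its difference only through the pseudocount. Pairs were judged by sign alone, so Prdx1 minus Prdx2 counted as kept at 0.07 log2 with the longest transcript, against 0.58 log2 in the main setting. The reversed ones were Fth1 minus Ftl1 at 0.031 log2 and Sod1 minus Sod2 at −0.10 log2 in CPM, which by construction hold no gene length, and Gclc minus Gclm at −0.18 log2 without mouse 2. Leaving out each mouse put Gclc minus Gclm between −0.18 and 1.81 log2, and the median CV of the members between 32.9% and 36.8%. That CV was 35.4% with median-of-ratios factors, 34.9% without the 10 highest genes in the denominator and 31.5% over members with at least 10 counts in every mouse. The summed TPM was 14195 in CPM, 28199 without the 10 highest genes in the denominator and 14139 without the ferritin genes. Members with a median above the cutoff numbered between 37 and 39, those above it in every mouse between 31 and 36, and those with enough counts in every mouse between 33 and 38. No paired analysis was possible because there is 1 group of mice and so no second group to pair with it; genes were paired within mice. Depth limits the genes near 3 counts, and 4 mice limit every test.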

Other observations

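Mtf1, Slc30a1 and G6pdx are named here after their values were seen. Mtf1, the zinc-sensing transcription factor of the metallothionein genes, was at 1.48, 3.01, 1.05 and 1.34 TPM in mice 1 to 4, highest in mouse 2 as Mt1 and Mt2 were. Slc30a1, a zinc exporter that MTF1 is known to induce, had 4, 0, 157 and 383 counts, and was thus lowest in mouse 2, where Mt1 was highest. Trf, transferrin, was at 138, 873, 401 and 174 TPM, with the same highest and lowest mouse as Selenop. G6pdx, the first enzyme of the pentose phosphate pathway and a main source of NADPH, had 470, 565, 1968 and 0 counts, so it was not detected in mouse 4. Mouse 4 was lowest for 17 of the 39 genes, Gclc and Hmox1 among them. It was lowest for 29.7% of the other genes with a median above 1 TPM. Txn1, Txnrd1, Gclm, Gsr and Nqo1 were highest in that mouse.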
